A study of Homo sapiens with 30 samples.

Results

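The comparison described here set ASO2 against ASO10 in NGP cells, as 3 libraries against 3, which are 6 of the 30 RNA sequencing libraries of the series. NGP is an established human neuroblastoma cell line, grown in culture from a tumour of the sympathetic nervous system. ASO2 and ASO10 are antisense oligonucleotides directed at the same target, the long non-coding RNA NESPR, which the series describes as specific to the adrenergic state of neuroblastoma. Every culture received 100 nM of an oligonucleotide with lipofectamine 2000, a lipid transfection reagent, so the groups differ in the oligonucleotide and share the lipid and the dose. A further 3 NGP libraries, given a negative control oligonucleotide (NCA) at the same dose, were used to say which side had moved. The same ASO pair in SK-N-BE(2)c cells, another neuroblastoma line, gave 6 libraries with no cell or library in common with the NGP ones.

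An antisense oligonucleotide is a short synthetic nucleic acid strand that base-pairs with a complementary RNA. Depending on its chemistry it can recruit RNase H, which cuts the paired RNA, or block what binds there, and it can also pair with RNAs other than the intended one. A direct comparison of ASOs with a common target asks which transcripts separate them from each other, and the control then shows on which side each difference lies. Adrenergic neuroblastoma cells are known for a set of transcription factors, among them HAND2, GATA3 and ISL1, and for catecholamine enzymes and chromogranins.

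The sources used here give neither the sequences of the oligonucleotides nor the time between transfection and harvest. They name a stranded total RNA kit and a stranded mRNA kit without saying which library had which. Nothing says that the 3 libraries of a group came from separate cultures, so p-values measure only the spread between these libraries. All results come from 1 line, with a check in a second. The column of NCA replicate 1 is spelled differently from the other NCA columns, and whether it is the same control oligonucleotide is not settled by the labels. NESPR is not analysed here under its own name, so its reduction by either ASO was not checked.

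The 9 NGP libraries held between 11591178 and 13795561 reads in genes. Neuroblastoma genes were high in every group: HAND2 averaged 10610.0 normalized counts under ASO2, 8447 under ASO10 and 12760.0 under NCA. PTPRC and CD3E (immune cells) and KRT5 (epithelium) had no read in any of the 9 libraries, and the Schwann cell genes SOX10 and S100B averaged at most 0.657. Of the 19 markers of other cell types in the table, 6 passed the filter on low values, and their summed level was 593 to 615 under ASO2, 423 to 518 under ASO10 and 413 to 435 under NCA. PDGFRA and COL1A1, known from fibroblasts and other mesenchymal cells, made up most of that sum and were higher under ASO2, while LYZ, the lysozyme gene of myeloid cells, averaged 95 under ASO10 against 11.9 under ASO2 and 21.5 under NCA. Libraries of NCA differed from each other more than those of the ASO groups did: NCA replicate 3 gave a chi-square per degree of freedom of 4.64 and 6.84 against the other NCA replicates, while all other pairs within a group gave 2.22 to 3.58.

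ASO2 and ASO10 left NGP cells with clearly different transcript levels. Values are the deposited normalized counts, and differences are on the log2(value + 1) scale, ASO2 minus ASO10, so a positive value means higher under ASO2 and a negative one higher under ASO10. Of 14524 genes with a mean of at least 10, 8962 (61.7%) passed an adjusted p of 0.05 by limma. Of these, 4623 (31.8% of genes tested) were higher under ASO2 and 4339 (29.9%) higher under ASO10. The balance was uneven among larger differences: 1979 genes (13.6%) were called and differed by at least 1 log2 unit, 549 higher under ASO2 (3.78%) and 1430 higher under ASO10 (9.85%). The values of the 3 ASO2 libraries did not overlap those of the 3 ASO10 libraries in 65.4% of the genes tested.

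The surplus on the ASO10 side lay mostly among genes of low level. With the genes split by mean level into 5 groups of equal size, in the lowest group, from 10.0 to 40.2 normalized counts, 730 genes were higher under ASO10 by at least 1 log2 unit and 156 under ASO2. In the highest group, above 1070.1, the counts were 46 and 61. The number of genes with at least 1 read was also larger under ASO10, at 23722 to 23934 per library, than under ASO2 (21253 to 21920) or NCA (21615 to 22030), although the read totals overlapped. Its part in the called differences was not tested.

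**Figure D1:**
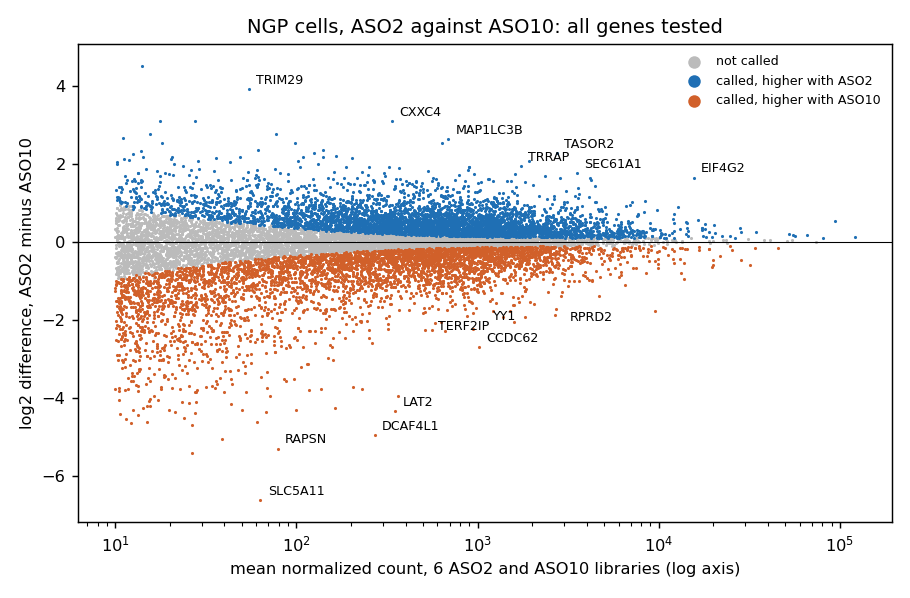
Each point is 1 of the 14524 genes tested in NGP cells, with the mean normalized count over the 6 ASO2 and ASO10 libraries on a log axis and the log2 difference, ASO2 minus ASO10, on the y axis. The 4623 genes called higher under ASO2 are blue and the 4339 called higher under ASO10 are orange; the largest differences on the orange side, such as SLC5A11 and RAPSN, lie at low levels.

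The clearest genes on the ASO2 side were abundant transcripts that ASO2 raised and ASO10 lowered against the control. TASOR2 (ENSG00000108021), a relative of the silencing complex subunit TASOR, was at 4578, 4372 and 4631 in the ASO2 libraries and 915, 854 and 1040.4 in the ASO10 libraries. All 3 NCA libraries, at 2036, 1977 and 2414, lay between them, and no groups overlapped (log2 difference 2.28, SE 0.057, limma adjusted p 3.76e-28). FAT1 (ENSG00000083857), an atypical cadherin, was at 3185, 2983 and 3165 under ASO2, 712, 754 and 764 under ASO10 and 1029, 1156 and 1184 under NCA (log2 difference 2.06, SE 0.055, limma adjusted p 8.99e-28). Its control libraries lay nearer to ASO10, and no group overlapped another.

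SEC61A1, the pore subunit through which new secretory and membrane proteins enter the endoplasmic reticulum, was lowest under ASO10. Its library values were 5391, 5459 and 5627 under ASO2, 1599.8, 1587 and 1661 under ASO10 and 3862, 4049 and 3781 under NCA (log2 difference 1.76, SE 0.047, limma adjusted p 8.99e-28). EIF4G2, a relative of the initiation scaffold eIF4G, was at 24268, 23026 and 23836 under ASO2 and 7521, 7020.0 and 8292 under ASO10 (log2 difference 1.64, SE 0.046, limma adjusted p 2.69e-27). Against NCA libraries of 19002, 18998 and 20035, EIF4G2 was higher under ASO2 by 0.29 log2 units and lower under ASO10 by the larger amount, -1.35. TRRAP, the scaffold of the SAGA and NuA4/TIP60 histone acetyltransferase complexes, had a like arrangement, with 2743, 2802 and 2734 under ASO2, 752, 701 and 710.1 under ASO10 and 1984, 2055 and 2094 under NCA (log2 difference 1.94, SE 0.055, limma adjusted p 5.32e-27).

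By size, the 8 largest differences on the ASO2 side among genes averaging at least 100 under ASO2 were in TRIM29, CXXC4, BMF, MAP1LC3B, ZXDB, RCBTB1, GASK1B and CALHM5. TRIM29, a tripartite motif protein, was at 86.3, 113 and 112 under ASO2, 6.11, 4.75 and 6.90 under ASO10 and 33.7, 23.9 and 23.6 under NCA (log2 difference 3.92, SE 0.27, limma adjusted p 2.15e-15). CXXC4, which binds Dishevelled and dampens Wnt signalling, was at 589, 625 and 604 under ASO2, 76.4, 61.8 and 72.98 under ASO10 and 341, 309 and 347 under NCA (log2 difference 3.09, SE 0.11, limma adjusted p 4.48e-24). BMF, a BH3-only protein that promotes apoptosis, was at 150.4, 140.2 and 115, 26.5, 14.3 and 17.8 and 31.9, 37.2 and 35.9 in the same order of groups (log2 difference 2.76, SE 0.22, limma adjusted p 6.07e-14). In each of these genes the NCA libraries lay between the ASO groups with no overlap, nearer to ASO2 in CXXC4 and nearer to ASO10 in BMF.

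MAP1LC3B encodes an LC3 protein that coats autophagosomes. Its values were 1245, 1128 and 1190.3 under ASO2, 189, 172 and 212 under ASO10 and 726, 678 and 679.9 under NCA (log2 difference 2.63, SE 0.082, limma adjusted p 5.74e-26). RCBTB1 had differences of 1.23 from NCA under ASO2 and -1.30 under ASO10, and GASK1B and CALHM5 were likewise called in opposite directions. ZXDB was the exception among the 8: under ASO2 it was at 176, 175 and 152 and under NCA at 170.3, 166 and 159, overlapping, and only the ASO10 libraries, at 32.6, 27.6 and 24.7, stood apart (log2 difference 2.53, SE 0.18, limma adjusted p 2.65e-15). ZXDB has a near-identical copy, ZXDA, so its counts are uncertain.

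The smallest adjusted p on the ASO10 side belonged to CCDC62, RPRD2, TERF2IP and YY1, which ASO2 lowered and ASO10 raised against NCA. CCDC62 (ENSG00000130783), which encodes a coiled-coil protein, was at 1837, 1757 and 1684 under ASO10, 255, 267 and 289 under ASO2 and 732, 674 and 638 under NCA (log2 difference -2.70, SE 0.07, limma adjusted p 4.61e-28). RPRD2 (ENSG00000163125), a protein that associates with RNA polymerase II, was at 4317, 4245 and 4049 under ASO10, 1145, 1228 and 1062 under ASO2 and 2397, 2413 and 2561 under NCA (log2 difference -1.88, SE 0.054, limma adjusted p 5.32e-27). The control sat between the ASO groups in both genes.

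TERF2IP (ENSG00000166848), the shelterin subunit RAP1 at telomeres, was at 613, 652 and 572 under ASO2, 2586, 2479 and 2608 under ASO10 and 2119.7, 2246 and 2226 under NCA (log2 difference -2.06, SE 0.059, limma adjusted p 5.32e-27). Its difference lay mainly on the ASO2 side, at -1.84 from NCA against 0.22 under ASO10. YY1 (ENSG00000100811), a zinc finger transcription factor, was at 753, 782 and 748 under ASO2, 2984, 2893 and 2749.5 under ASO10 and 1793, 1758 and 1933 under NCA (log2 difference -1.92, SE 0.055, limma adjusted p 5.66e-27). In YY1 the ASO2 side was also the farther from the control, and all 3 groups were apart.

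**Figure D2:**
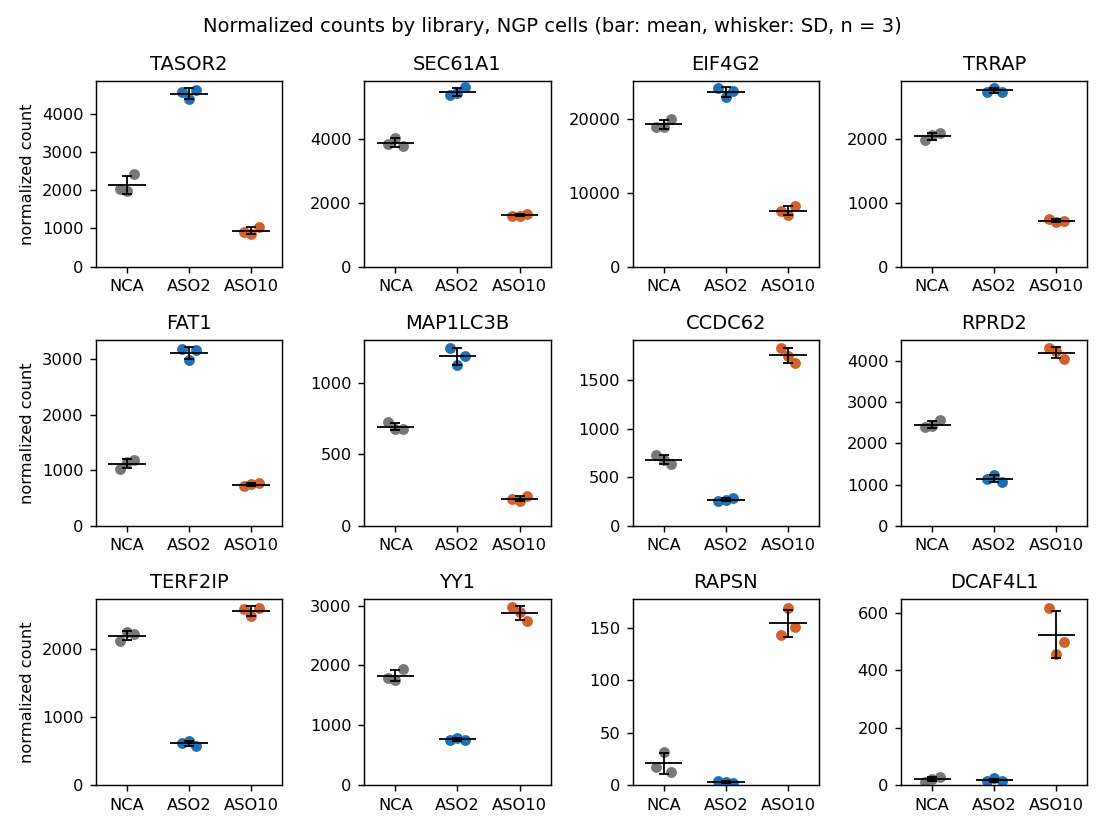
Normalized counts of 12 genes in the 9 NGP libraries, with 1 point per library, a bar at the mean and whiskers of 1 SD (n = 3), each panel on its own linear axis from 0. In TASOR2, SEC61A1, EIF4G2, TRRAP, FAT1 and MAP1LC3B the ASO2 libraries are the highest, in the other panels the ASO10 libraries are, and the NCA libraries lie between them except in DCAF4L1, where they overlap ASO2.

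The largest differences of all were in genes at low levels under ASO2 and NCA and higher under ASO10. The 8 largest among genes averaging at least 100 under ASO10 were SLC5A11, RAPSN, DCAF4L1, MAP7D2, LAT2, SCG5, ODAD3 and ARHGAP27. SLC5A11, a sodium-coupled inositol transporter, was at 123, 139 and 116 under ASO10 and had 1 read in all ASO2 libraries together against 385 reads under ASO10. The ratio of ASO10 to ASO2 was 378, with a 95% exact interval of 67.4 to 14960 that covers counting error only, and NCA was between them at 15.5, 14.2 and 7.18. RAPSN, which clusters acetylcholine receptors at the neuromuscular junction, was at 144, 169 and 151 under ASO10, 3.71, 2.96 and 2.22 under ASO2 and 17.3, 31.9 and 12.3 under NCA (log2 difference -5.31, SE 0.28, limma adjusted p 8.09e-19). Both genes were therefore above the control under ASO10 and below it under ASO2.

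DCAF4L1, a WD-repeat protein, was at 617, 458 and 498 under ASO10, while its ASO2 libraries (13.9, 22.7 and 12.2) overlapped those of NCA (11.8, 19.5 and 26.7; log2 difference -4.96, SE 0.18, limma adjusted p 4.91e-24). LAT2, an adaptor protein of immune cell signalling, was at 696, 709 and 602 under ASO10, 41.8, 21.7 and 35.6 under ASO2 and 70.1, 69.1 and 36.9 under NCA, and its ASO2 and NCA libraries overlapped (log2 difference -4.34, SE 0.15, limma adjusted p 3.81e-24). LAT2 was nevertheless called against NCA with both ASOs, at -0.80 under ASO2 and 3.54 under ASO10. SCG5, the neuroendocrine chaperone of prohormone convertase PC2, was at 201, 178 and 188 under ASO10, 4.64, 12.8 and 10.01 under ASO2 and 47.3, 30.1 and 36.9 under NCA (log2 difference -4.32, SE 0.25, limma adjusted p 1.14e-17). MAP7D2, ODAD3 and ARHGAP27 behaved as DCAF4L1 did: in each the ASO2 libraries overlapped NCA, and only ASO10 was called against it, by 4.96, 4.01 and 3.53 log2 units.

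Across the 1979 genes that differed by at least 1 log2 unit, the control fell between the ASO means in 1169 (59.1%), below both in 563 (28.4%) and above both in 247 (12.5%). In a fit with the NCA libraries, 731 of these genes (36.9%) differed from NCA under ASO10 only, 416 (21.0%) under ASO2 only, 486 (24.6%) with both in opposite directions, 267 (13.5%) with both in 1 direction and 79 (3.99%) with neither. Over all genes tested, ASO2 was called against NCA in 58.6% and ASO10 in 54.9%. ASO10 was the farther from NCA in 1263 of the 1979 (63.8%). Over all 8962 called genes the order was the other way, with ASO10 the farther in 4193 (46.8%), ASO10 only in 2247 (25.1%) and ASO2 only in 2686 (30.0%). The classes depend on the control libraries, which both contrasts share, and requiring at least 0.5 log2 units against NCA brought the opposite class from 486 to 249.

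Among genes that differed by at least 1 log2 unit, the place of the control was not alike in the 2 directions. Of the 549 genes higher under ASO2, the NCA mean lay between the ASO means in 405 (73.8%) and below both in 52 (9.47%). Of the 1430 genes higher under ASO10, it lay between in 764 (53.4%) and below both in 511 (35.7%). Over all called genes the shares below both were close, at 28.6% of those higher under ASO2 and 27.7% of those higher under ASO10. DHX58, a cytosolic sensor of viral RNA, had NCA below both, at 41.8, 24.7 and 36.7 under ASO2, 111, 142 and 115 under ASO10 and 22.8, 9.75 and 10.3 under NCA, so it was above NCA with either ASO and farthest under ASO10.

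Genes higher under ASO10 often sat downstream of another expressed gene on the same strand. With gene order from GENCODE 29, the nearest tested gene upstream on the same strand lay within 20000 bp for 28.2% of all tested genes that had such a neighbour. The share was 15.1% for genes higher under ASO2 by at least 1 log2 unit, 55.3% for those higher under ASO10 by at least 1, and 68.9% for those higher under ASO10 by at least 2. The median distance was 79352 bp over all tested genes, 15283 bp at 1 log2 unit and 9990 bp at 2 log2 units on the ASO10 side, and 176842 bp at 1 log2 unit on the ASO2 side. The median level under NCA was 297 over all tested genes, but 22.3 at 1 log2 unit and 6.80 at 2 log2 units on the ASO10 side. Many of these genes may thus have passed the filter, a mean of at least 10, only through their ASO10 values. The part of this in the shares was not tested.

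The same shares were taken at higher and lower levels. Where the mean over the 9 NGP libraries reached 50, the share within 20000 bp was 26.7% of all tested, 15.8% of genes higher under ASO2 by at least 1 log2 unit, 49.0% of those higher under ASO10 by at least 1 and 81.0% by at least 2. Below 50 the shares were 33.5%, 13.7%, 59.8% and 65.9%. The mean over the 9 libraries includes those of ASO10. Where it reached 50, genes higher under ASO10 by at least 1 log2 unit had a median level under NCA of 168. For those higher by at least 2 it was 43.0, so many of them may have reached 50 only through their ASO10 values. The shares are descriptions with no test. For upstream neighbours within 20000 bp, the median difference was -0.10 where the downstream gene was higher under ASO10 by at least 1 log2 unit and -0.23 where it was by at least 2, against -0.01 over all tested genes. At a mean of at least 50 these medians were -0.09, -0.38 and -0.02.

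The genes with the largest differences show the arrangement. LAT2 lies 2551 bp downstream of EIF4H, a translation initiation factor that averaged 2817 under ASO2, 2475 under ASO10 and 2308 under NCA. SCG5 lies 1727 bp downstream of ARHGAP11A, at 3201, 2357 and 2304 in the same order of groups. MAP7D2 lies 7601 bp downstream of EIF1AX, another initiation factor, at 839, 666 and 640. In these pairs the upstream gene was higher under ASO2 (log2 differences of 0.19, 0.44 and 0.33, limma adjusted p 0.0019, 2.38e-10 and 4.47e-05), opposite to the downstream gene.

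ARHGAP27 lies 1479 bp downstream of PLEKHM1, RAPSN 16755 bp downstream of CELF1, and SLC5A11 18209 bp downstream of TNRC6A. The difference of the upstream gene was -0.36 in PLEKHM1, -0.15 in CELF1 and -0.08 in TNRC6A, of which the last was not called (limma adjusted p = 0.188). ODAD3 lies 15544 bp downstream of ELAVL3, and DCAF4L1 21124 bp downstream of TMEM33, just outside the window. ELAVL3 and TMEM33 were both higher under ASO2, by 0.49 and 0.69 log2 units. The counting strand is not given in the sources used here, so reads from genes that overlap cannot be told apart.

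**Figure D3:**
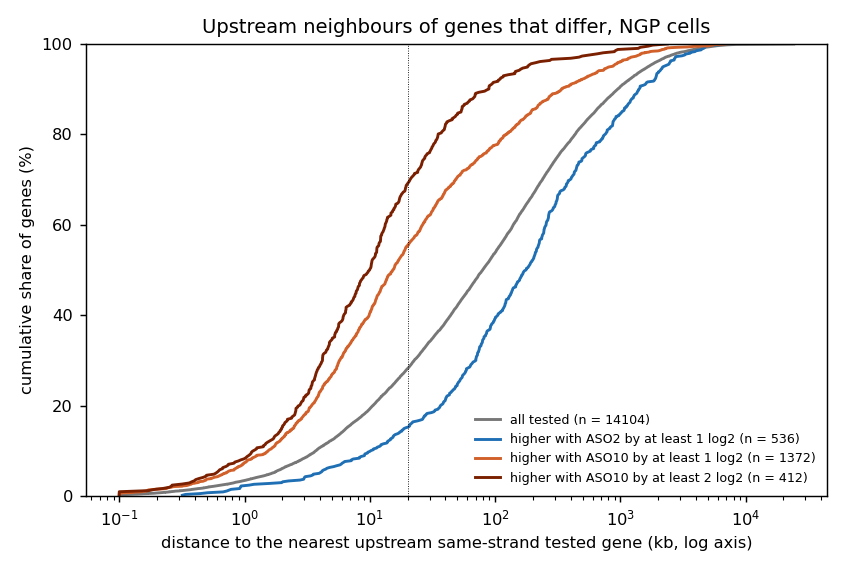
Cumulative share of NGP genes (%) by the distance in kb, on a log axis, to the nearest upstream tested gene on the same strand, for all tested genes and for genes that differ by at least 1 or 2 log2 units. At the dotted line at 20 kb the curves pass 28.2% for all tested genes, 15.1% for genes higher under ASO2, and 55.3% and 68.9% for genes higher under ASO10 by at least 1 and 2 log2 units.

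In medians over all genes, length did not separate the ASOs in the way it separated each of them from the control. In the longest of 5 equal groups of genes by genomic span, the median difference between ASO2 and ASO10 was 0.005, while the medians against NCA were -0.28 under ASO2 and -0.25 under ASO10. In the shortest group the medians were -0.02, 0.09 and 0.08. Genes that differed by at least 1 log2 unit did differ in length between the sides. Their median span was 43884 bp on the ASO2 side and 20482 bp on the ASO10 side, against 28464 bp over all tested genes. Where the mean over the 9 libraries reached 50, these were 55159, 34075 and 32937 bp. Below 50 they were 12770, 13591 and 12638 bp. Genes higher under ASO10 by at least 2 log2 units had a median exonic GC content of 54.3%, against 48.2% over all tested genes and 46.1% for genes higher under ASO2 by at least 2.

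Genes of the secretory pathway were among those higher under ASO2. Of 25 tested genes of the translocon, signal recognition particle and signal peptidase, 15 were higher under ASO2 and 4 under ASO10, with a median of 0.24 against 0.02 over all genes tested. Over all genes tested, 31.8% were higher under ASO2 and 29.9% under ASO10. The counts of this and each later list are to be read beside these shares. List values after rescaling to equal totals have another background. After rescaling, 4004 of the 14524 genes were called higher under ASO2 and 4861 under ASO10, and the median of all genes was -0.04. Besides SEC61A1, the signal recognition particle gene SRP19 was at 296, 289 and 326 under ASO2, 183, 153 and 194 under ASO10 and 226, 219.8 and 266 under NCA (log2 difference 0.78, SE 0.11, limma adjusted p 6.41e-08). The partners of the channel for post-translational import went the other way: SEC63 and SEC62 had differences of -0.55 and -0.39. The summed level of the 25 genes was 40069 to 42485 under ASO2, 34770 to 35754 under ASO10 and 34317 to 36527 under NCA.

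Of 26 tested genes of the unfolded protein response, which restores folding capacity in the endoplasmic reticulum, 15 were higher under ASO2 and 3 under ASO10 (median 0.19). None of the 26 reached 1 log2 unit. SEL1L, of the machinery that removes misfolded proteins, was at 1194, 1083 and 1079 under ASO2, 631, 656 and 767 under ASO10 and 690.2, 665 and 728 under NCA (log2 difference 0.71, SE 0.07, limma adjusted p 2.28e-11), so that only ASO2 differed from the control. EDEM3, a mannosidase of the same removal pathway, was lower under ASO2, at 538, 573 and 512 against 1026, 929 and 1070.0 under ASO10 and 1106, 1034 and 1171 under NCA (log2 difference -0.90, SE 0.07, limma adjusted p 4.68e-14). The chaperone HSPA5 (BiP), named for its role as the usual marker of this response, was at 4059 ± 124 under ASO2 and 4142 ± 176 under ASO10 and was not called (-0.03, limma adjusted p = 0.608).

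The ER stress element is the promoter sequence through which ATF6 and its partner NF-Y act on such genes. It was searched on both strands in RefSeq promoter windows (GRCh38.p14) from 250 bases before to 50 after the start. The windows of HSP90B1, which encodes the ER chaperone GRP94, and of HSPA5 are shown because both hold the element while their transcripts differed between the ASOs in 1 case and not in the other. Capitals mark the element, on either strand, and each window is written 5′ to 3′ on the strand of its gene. HSP90B1 is at chr12:103930160-103930459 on the plus strand and HSPA5 at chr9:125241294-125241593 on the minus strand.
HSP90B1: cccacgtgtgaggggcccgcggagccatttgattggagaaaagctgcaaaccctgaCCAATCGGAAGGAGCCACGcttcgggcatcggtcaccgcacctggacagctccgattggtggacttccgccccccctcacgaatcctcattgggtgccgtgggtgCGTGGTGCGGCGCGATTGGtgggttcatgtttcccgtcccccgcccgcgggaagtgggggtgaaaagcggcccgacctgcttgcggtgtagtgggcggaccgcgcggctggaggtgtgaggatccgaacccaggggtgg
HSPA5: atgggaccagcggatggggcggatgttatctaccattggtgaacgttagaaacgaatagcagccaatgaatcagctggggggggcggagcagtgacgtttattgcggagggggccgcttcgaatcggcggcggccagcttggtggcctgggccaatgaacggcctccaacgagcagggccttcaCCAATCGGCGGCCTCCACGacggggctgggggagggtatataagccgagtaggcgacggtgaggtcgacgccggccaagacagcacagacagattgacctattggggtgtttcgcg
HSP90B1 was at 3433 ± 96.3 under ASO2, 2522 ± 122 under ASO10 and 3194 ± 193 under NCA, a difference of 0.45 (SE 0.049, limma adjusted p 3.89e-10). Of the tested genes with a promoter in the table, 8 of 3599 higher under ASO2 held the element (0.222%), 1 of 3043 higher under ASO10 (0.0329%) and 13 of 10485 in all (0.124%), against 0.0806% of all 27305 promoters. None of the genes that differed by at least 1 log2 unit held it, 0 of 375 on the ASO2 side and 0 of 831 on the ASO10 side. A match describes these letters and is not evidence of binding, and HSP90B1 and HSPA5 were chosen after their values were seen.

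Cytosolic chaperones and the proteasome leaned to the same side. Of 29 heat shock proteins and co-chaperones, 18 were higher under ASO2 and 3 under ASO10 (median 0.24), against 31.8% and 29.9% of all genes. DNAJB6 was at 1051, 1115 and 1105 under ASO2, 448, 414 and 492 under ASO10 and 752, 689 and 763 under NCA (log2 difference 1.27, SE 0.071, limma adjusted p 3.12e-18), and DNAJB1, the inducible HSP40, had a difference of 1.19. DNAJB4 and HSPA4L were higher under ASO10 (-0.77 and -0.58). Of 32 proteasome subunits, 20 were higher under ASO2 and 6 under ASO10 (median 0.21), led by PSMD3 at 0.62 and PSMC6 at 0.57. PSMA5, a subunit of the core particle, was the main exception: it was at 702, 802 and 699 under ASO2, 1306, 1394 and 1392 under ASO10 and 1403, 1289 and 1384 under NCA (log2 difference -0.90, SE 0.064, limma adjusted p 4.22e-15).

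The ATF4-CHOP pathway, which adapts cells to amino acid shortage and ER stress, was above the control with either ASO, and its members split between them. Against NCA, 23 of 25 tested members were higher under ASO2 (30.9% of all genes tested were) and 24 under ASO10 (27.6%); these contrasts share the NCA libraries. Between the ASOs, 15 were higher under ASO2 and 6 under ASO10 (median 0.18). The secreted protein STC2 was at 1226, 1123 and 1164 under ASO2, 709, 686 and 634 under ASO10 and 261, 297 and 242 under NCA (log2 difference 0.79, SE 0.065, limma adjusted p 1.78e-13), and the amino acid transporter SLC38A2 had a difference of 0.50. Higher under ASO10 were the transcription factors ATF4 (-0.33) and DDIT3, which encodes CHOP (-0.44), the mTORC1 inhibitor DDIT4 (-0.51) and the mitochondrial folate enzyme ALDH1L2. ALDH1L2 was at 284, 302 and 277 under ASO2, 778, 719 and 781 under ASO10 and 407, 422 and 389.7 under NCA (log2 difference -1.40, SE 0.078, limma adjusted p 3.82e-18), the only member of the 25 to pass 1 log2 unit. ATF4 and DDIT3 were named after their values were seen.

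Target genes of p53 showed a lean to ASO10. Of 25, 12 were higher under ASO10 and 4 under ASO2 (median -0.08). Against NCA, 19 were higher under ASO2 (30.9% of all genes tested were) and 22 under ASO10 (27.6%). DDB2, of DNA damage recognition, was at 1077, 1175 and 1064 under ASO10 and 556, 512 and 569.6 under ASO2, the latter overlapping NCA at 562, 494 and 505 (log2 difference -1.02, SE 0.067, limma adjusted p 5.09e-16). SPATA18 had a difference of -1.93, at a level of at most 85.8. TP53INP1 and RRM2B, a ribonucleotide reductase subunit, were higher under ASO2 (0.51 and 0.46). Of members chosen after their values were seen, CDKN1A (p21) was at 6261 ± 327 under ASO2, 7085 ± 444 under ASO10 and 2311 ± 290.5 under NCA (-0.18), so the ASOs stood closer to each other than to the control.

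In the BCL2 family, which sets the threshold of apoptosis, 8 of 17 tested members were higher under ASO2 and 6 under ASO10. These became 6 and 7 after rescaling to equal totals. The shares over all genes before rescaling were 31.8% and 29.9%. The members higher under ASO2 included BMF and BNIP3, a mitochondrial protein of mitophagy and cell death, which was at 152, 154 and 156 under ASO2, 57.1, 45.6 and 67.1 under ASO10 and 112, 109.9 and 136 under NCA (log2 difference 1.45, SE 0.16, limma adjusted p 4.49e-10). BCL2L13 was higher under ASO10, at 775, 799 and 758 against 400.1, 332 and 359 under ASO2 and 606, 709 and 654 under NCA (log2 difference -1.10, SE 0.077, limma adjusted p 2.96e-15). HRK, a BH3-only gene of neurons, was called higher under ASO10 (-1.22) at 36.5 or less in every library, and was not called without ASO2 replicate 2.

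Of 32 AP-1 and immediate early genes, 15 were higher under ASO2 and 7 under ASO10 (median 0.20). Against NCA, 30 were higher under ASO2 (30.9% of all genes tested were) and 20 under ASO10 (27.6%). IER3 was at 630.3, 427 and 504 under ASO2, 266, 258 and 252 under ASO10 and 102, 100.1 and 97.4 under NCA (log2 difference 0.99, SE 0.099, limma adjusted p 4.66e-11), and the nuclear receptor NR4A2 had a difference of 1.17. Feedback inhibitors of ERK signalling stood on both sides: SPRY2, chosen after its values were seen, was higher under ASO2 (0.68). DUSP4, a phosphatase of ERK, was at 2974, 2892 and 2868 under ASO2, 5853, 5739 and 5507 under ASO10 and 3795, 3919 and 3699 under NCA (log2 difference -0.97, SE 0.045, limma adjusted p 1.66e-20), and SPRED1 was also higher under ASO10 (-1.11).

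Among chromatin and transcription genes, 20 of 33 members of the SAGA and NuA4/TIP60 complexes were higher under ASO2 and 3 under ASO10 (median 0.24; 16 and 5 after rescaling). TRRAP and the SAGA subunit SUPT20H (1.29, at 1298, 1173 and 1282 under ASO2, 478, 500.2 and 551 under ASO10 and 946, 952 and 988 under NCA) were the members past 1 log2 unit. P-TEFb, which releases paused polymerase, its 7SK inhibitor and the elongation factors were split. Of 28, 12 were higher under ASO2 and 9 under ASO10 (9 and 11 after rescaling). The shares over all genes before rescaling were 31.8% and 29.9%. CCNK, the cyclin of CDK12, was at 255, 298 and 284 under ASO2, 905, 925 and 947 under ASO10 and 975, 981 and 993 under NCA (log2 difference -1.73, SE 0.077, limma adjusted p 4.32e-21), a difference on the ASO2 side only. ELL and AFF1 of the super elongation complex were higher under ASO2 (1.68 and 1.20) and were called against NCA in opposite directions.

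Of 39 genes of cleavage, polyadenylation, termination and the Integrator complex, 12 were higher under ASO2 and 15 under ASO10 (median -0.04), against 31.8% and 29.9% of all genes. NUDT21, a cleavage factor subunit that sets the choice of poly(A) site, was the only one past 1 log2 unit: it was at 6485, 6243 and 6261 under ASO2, 2113, 1936 and 2274 under ASO10 and 5265, 4927 and 5734 under NCA (log2 difference 1.59, SE 0.05, limma adjusted p 9.7e-26). PCF11, which couples cleavage to termination, was higher under ASO2 (0.68) and not called between ASO10 and NCA. In the list of nuclear retained RNAs, paraspeckle proteins and RNase H, 2 of 14 were higher under ASO2 and 5 under ASO10; the median of 0.03 turned to -0.03 after rescaling. RNASEH2B, a subunit of RNase H2, was at 358, 322 and 324 under ASO2, 701, 709 and 719.9 under ASO10 and 687, 667 and 779 under NCA (log2 difference -1.08, SE 0.077, limma adjusted p 3.44e-15).

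Ribosomal protein genes stood on both sides with small differences, and initiation factors were called in both directions. Of 78 cytosolic ribosomal protein genes, 14 were higher under ASO2 and 16 under ASO10, against 31.8% and 29.9% of all genes, and the median of 0.01 turned to -0.05 after rescaling (9 and 20 called). None reached 1 log2 unit, and against NCA 50 were higher under ASO2 (30.9% of all genes tested were) and 52 under ASO10 (27.6%). Of 38 initiation factors, 17 were higher under ASO2 and 11 under ASO10, with a median of 0.03 that turned to -0.03 after rescaling. EIF4G2 led 1 side and EIF2S3, a subunit of the factor that delivers the initiator tRNA, the other, at 674, 760.3 and 676 under ASO2, 1483, 1441 and 1439.8 under ASO10 and 1275, 1208 and 1298 under NCA (log2 difference -1.05, SE 0.062, limma adjusted p 2.11e-17). Of 54 respiratory chain genes, 26 were higher under ASO2 and 8 under ASO10 (17 and 12 after rescaling), with NDUFV2 of complex I at 1.76 and UQCRC2 of complex III at -0.59.

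Cell cycle genes stood on both sides, and the difference between the phases was not tested. Of 42 mitosis and G2/M genes, 26 were higher under ASO2 and 9 under ASO10 (median 0.22), and 22 of them were below NCA under ASO10 (27.2% of all genes were), against 13 under ASO2 (27.7%). ECT2, which directs cytokinesis, was at 1751, 1749.6 and 1658 under ASO2, 610.4, 479 and 611 under ASO10 and 1147, 1097 and 1438 under NCA (log2 difference 1.61, SE 0.071, limma adjusted p 3.46e-21). KIF4A and CDC20 were higher under ASO10 (-0.58 and -0.42). DNA replication and G1/S genes were even, with 14 of 41 higher on each side, against 31.8% and 29.9% of all genes. After rescaling, which moved all genes toward ASO10, 11 were higher under ASO2 and 18 under ASO10. RRM2 was higher under ASO2 (0.87), while CDC45, of the replicative helicase, was at 705, 903 and 656 under ASO2, 1417, 1542 and 1484 under ASO10 and 1394, 1342 and 1499 under NCA (log2 difference -0.98, SE 0.075, limma adjusted p 2.76e-14).

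Adrenergic transcription factors were mostly higher under ASO2, while neuroblastoma identity markers stood on both sides. Of 20 tested adrenergic transcription factors, 14 were higher under ASO2 and 3 under ASO10 (median 0.28), none by 1 log2 unit. Against NCA, 14 were lower under ASO10 (27.2% of all genes tested were) and 7 under ASO2 (27.7%). ISL1 was at 4373, 4253 and 4504 under ASO2, 3013, 2931 and 3097 under ASO10 and 4253, 4265 and 4459 under NCA (log2 difference 0.54, SE 0.046, limma adjusted p 7.42e-13), so ASO2 overlapped the control and ASO10 lay below it. KLF7 had the same arrangement (0.69), and ZNF536 was lower than NCA with either ASO and lowest under ASO2 (-0.45). Of 11 identity markers, some of them in the former list, 7 were higher under ASO2 and 3 under ASO10 (5 and 3 after rescaling; median 0.17). Their summed level was lower under ASO2, at 84865 to 89695, than under ASO10, at 90162 to 92943, and 95009 to 97419 under NCA. MYCN, by far the most abundant of the 11, averaged 43000 under ASO2, 48000 under ASO10 and 45500 under NCA. The sum therefore rests largely on MYCN, and its order need not hold for the other markers. CHGA, a chromogranin of secretory granules, was among those higher under ASO10 (-0.24). In bulk RNA, fewer cells of a type and less RNA per cell cannot be told apart.

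Of 18 genes of catecholamine synthesis, storage and chromogranins, 8 were higher under ASO2 and 7 under ASO10, against 31.8% and 29.9% of all genes. After rescaling these counts were 6 and 7. MAOA, which breaks catecholamines down, was higher under ASO2 (0.81). Of 37 genes of the neuronal cytoskeleton, axon and synapse, 15 were higher under ASO2 and 7 under ASO10 (median 0.09). DCX, a microtubule protein of migrating neurons, was at 6295, 6429.7 and 6294 under ASO2, 3896, 3717 and 4023 under ASO10 and 5072, 4877 and 5830.3 under NCA (log2 difference 0.71, SE 0.044, limma adjusted p 9.92e-17). Another microtubule regulator, STMN2, was higher under ASO10 (-0.45), and its ASO2 libraries overlapped NCA.

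Of 30 genes of the mesenchymal neuroblastoma state and YAP targets, 14 passed the filter on low values, and 7 of them were higher under ASO2 and 2 under ASO10. YAP1, MEOX1 and MEOX2 had no read in any of the 9 libraries. NOTCH3, a receptor linked to that state, was at 30.6, 29.6 and 23.4 under ASO2, 400.4, 459 and 293 under ASO10 and 124, 155 and 89.2 under NCA (log2 difference -3.72, SE 0.16, limma adjusted p 1.78e-21). LUM, an extracellular matrix proteoglycan, had the opposite sign (1.09). The markers of other cell types, which this list partly shares, are given above, and their part in these differences was not tested.

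The clearest list on the ASO10 side was that of cholesterol and fatty acid synthesis, in which 19 of 30 genes were higher under ASO10 and 3 under ASO2 (median -0.35). The regulators led it: SREBF2, the transcription factor that switches on sterol synthesis, was at 2001, 2275 and 2091 under ASO2, 4449, 4429 and 3942 under ASO10 and 3542, 3692 and 3295 under NCA (log2 difference -1.01, SE 0.053, limma adjusted p 5.71e-19). SCAP, its escort out of the endoplasmic reticulum, was at 882, 1011 and 988, 1872, 2043 and 1696 and 1655, 1713 and 1548 in the same order of groups (log2 difference -0.96, SE 0.064, limma adjusted p 5.14e-16). For both, ASO2 was below the control and the ASO10 mean above it, but the ASO10 and NCA libraries of SCAP overlapped. The synthase HMGCS1, named after its values were seen, was at 3359 ± 131 under ASO2, 5668 ± 169.5 under ASO10 and 3212 ± 254 under NCA (-0.76). The summed level of the list was 61687 to 63377 under ASO2, 77205 to 83981 under ASO10 and 59896 to 61908 under NCA. Of the 30, 22 were above NCA under ASO10 (27.6% of all genes tested were) and 12 under ASO2 (30.9%). HSD17B7, a late enzyme of the pathway, was the farthest on the ASO2 side, at 215, 195 and 221 under ASO2 and 112, 118 and 103 under ASO10 (log2 difference 0.92, SE 0.12, limma adjusted p 4.1e-08).

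In the remaining lists the larger differences belonged to few genes. Autophagy genes had 14 of 33 higher under ASO2 and 8 under ASO10 (median 0.11), against 31.8% and 29.9% of all genes. Alongside MAP1LC3B, GABARAPL1 was higher under ASO2 (1.22), while the relative MAP1LC3A (-1.23) and ATG2B (-0.75) were higher under ASO10. Of 19 NRF2 target genes, 10 were higher under ASO2 and 4 under ASO10, with the peroxidase PRDX1 at 0.68 and the pentose phosphate enzyme PGD at -0.86. Of 29 genes of nucleic acid sensing and the interferon response, 12 passed the filter on low values, with 6 higher under ASO2 and 3 under ASO10, and TBK1, the kinase that activates IRF3, was higher under ASO10 (-0.84) while IRF3 was higher under ASO2 (0.52). Of 10 telomere protein genes, 2 were higher under ASO2 and 4 under ASO10. TERF1, another shelterin subunit, was at 90.05, 104 and 91.2 under ASO2, 253, 250.1 and 301 under ASO10 and 291, 275 and 291 under NCA (log2 difference -1.48, SE 0.12, limma adjusted p 3.43e-13), on the ASO2 side only, as TERF2IP mainly was.

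**Figure D4:**
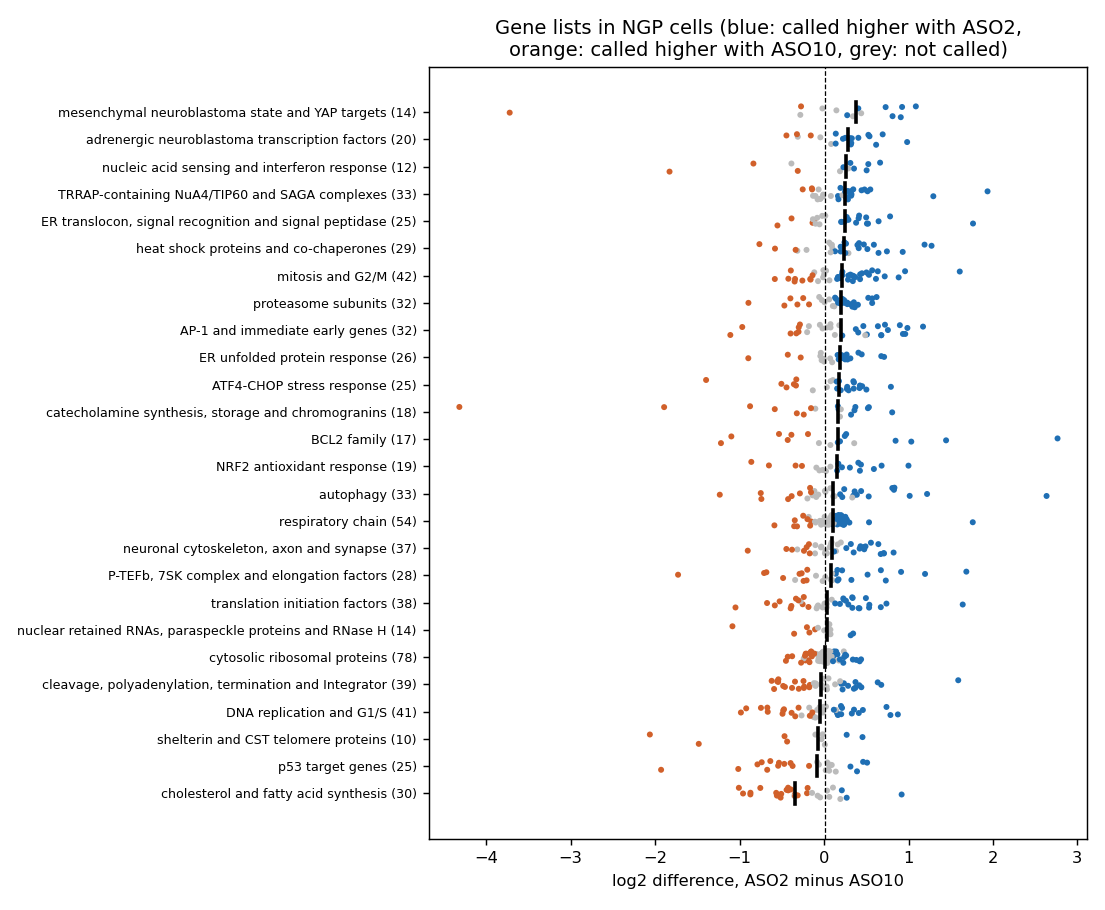
Log2 differences, ASO2 minus ASO10, of the tested genes of 26 lists in NGP cells, with 1 point per gene, the number tested in brackets, a black bar at the list's median and a dashed line at the median of all 14524 genes (0.02). Medians run from -0.35 for cholesterol and fatty acid synthesis to 0.37 for the mesenchymal list, and single genes such as NOTCH3, SCG5 and BMF lie far from the median of their list.

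LINC00682, a long non-coding RNA, was not called between the ASOs. It was at 396, 487 and 445 under ASO2 and 479, 492 and 456 under ASO10, a difference of -0.11 (SE 0.082, limma adjusted p = 0.264). The groups overlapped, and both were below NCA at 743, 792 and 671.

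The contrast in NGP was set against the same contrast in SK-N-BE(2)c, whose ASO2 and ASO10 libraries are separate. Of 12677 genes tested in both lines, 83.1% had the same sign of the difference, and Pearson's r across genes was 0.86, a description over genes that share libraries within each line. Of 1473 genes that differed by at least 1 log2 unit in NGP and were tested in both lines, 1333 (90.5%) were called in the same direction in SK-N-BE(2)c, where 65.8% of all genes tested were called, and 13 in the other. Their medians were near each other: 1.23 in NGP against 1.13 in SK-N-BE(2)c for the 428 genes higher under ASO2, and -1.47 and -1.51 for the 1045 higher under ASO10. TASOR2 had differences of 2.28 in NGP against 2.24 in SK-N-BE(2)c, EIF4G2 1.64 and 1.63, CCDC62 -2.70 and -2.82, and DCAF4L1 -4.96 and -5.11. For these 4 the difference between the lines was not called by limma (adjusted p from 0.786 to 0.959).

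The difference between the lines was tested as an interaction and called in 2398 of 12677 genes (18.9%). It was called in 275 of the 1473 genes above. GLMP, a lysosomal membrane protein, was at 27.9, 24.7 and 34.5 under ASO2 and 181, 193 and 139 under ASO10 in NGP, but at 519, 489 and 497 under ASO2 and 409, 442 and 453 under ASO10 in SK-N-BE(2)c. ENKD1, a centrosomal protein, was at 41.8, 25.7 and 24.5 under ASO2 against 161, 161 and 177 under ASO10 in NGP, and in the other line at 571, 606 and 521 against 460.3, 473 and 468. In both, and in RHOF, a small GTPase of filopodia, the sign turned between the lines: the NGP differences were -2.52, -2.44 and -1.22 and those in SK-N-BE(2)c 0.21, 0.27 and 0.42 (interaction, limma adjusted p 4.98e-11, 9.8e-11 and 2.07e-10). The upstream neighbours VHLL of GLMP (2935 bp) and HPD of RHOF (36124 bp) were themselves higher under ASO10 in NGP, at 113 against 21.1 and 52.9 against 3.11.

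SCG5 differed by -4.32 in NGP against -1.22 in SK-N-BE(2)c, where it was at 119, 134 and 139 under ASO2 and 299, 360.1 and 266 under ASO10 (interaction -3.10, SE 0.3, limma adjusted p 3.51e-08). FAT1 differed by 2.06 in NGP against 0.55 in SK-N-BE(2)c, where it was nearly silent, at 16.6, 24.5 and 13.2 under ASO2 and 13.9, 16.4 and 6.88 under ASO10 (interaction 1.52, SE 0.28, limma adjusted p 0.000264). Of genes higher under ASO2 in NGP, WARS1, the cytosolic tryptophanyl-tRNA synthetase, was at 1347, 1297 and 1205 under ASO2 and 1117, 1108 and 1161 under ASO10 in NGP, and in the other line at 1644, 1626 and 1670.0 against 2987, 3396 and 3113 (interaction 1.12, SE 0.079, limma adjusted p 6.5e-11). Its NGP difference of 0.18 was not called without ASO2 replicate 1. ARHGEF2, a microtubule-linked activator of RHOA, likewise turned sign (0.23 and -0.57), and CACNA2D2, a calcium channel subunit, was apart in NGP only (0.99 and -0.05), with interaction adjusted p of 3.51e-08 and 6.46e-08 by limma.

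The lists differed in how far the lines shared the contrast. The interaction was called in 18 of 30 cholesterol and fatty acid synthesis genes and in 14 of the 22 p53 targets tested in both lines, against 18.9% of all genes. The cholesterol list had 3 genes higher under ASO2 and 19 under ASO10 in NGP but 11 and 10 in SK-N-BE(2)c, with medians of -0.35 and 0.06. HSD17B7 turned sign in the direction opposite to the list (0.92 in NGP against -0.58 in SK-N-BE(2)c; interaction 1.501, SE 0.22, limma adjusted p 1.72e-05). Among p53 targets, TP53INP1 differed by 0.51 in NGP against 1.59 in SK-N-BE(2)c (interaction -1.08, SE 0.12, limma adjusted p 3.27e-07), and the list had 9 higher under ASO2 and 6 under ASO10 in SK-N-BE(2)c. The ATF4-CHOP list had 15 and 6 in NGP but 6 and 9 in SK-N-BE(2)c (medians 0.18 and -0.08), with the interaction called in 12 of 25. Adrenergic transcription factors had 14 and 3 in NGP but 7 and 5 in SK-N-BE(2)c (medians 0.28 and 0.07). Their interaction was called in 9 of the 19 tested in both lines. In the SAGA and NuA4/TIP60 list the lines were closer, with 20 and 3 called in NGP against 18 and 1 in SK-N-BE(2)c, and the interaction was called in 9 of 33. In the translocon list 15 and 4 were called in NGP against 17 and 4, with the interaction called in 5 of 25.

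**Figure D5:**
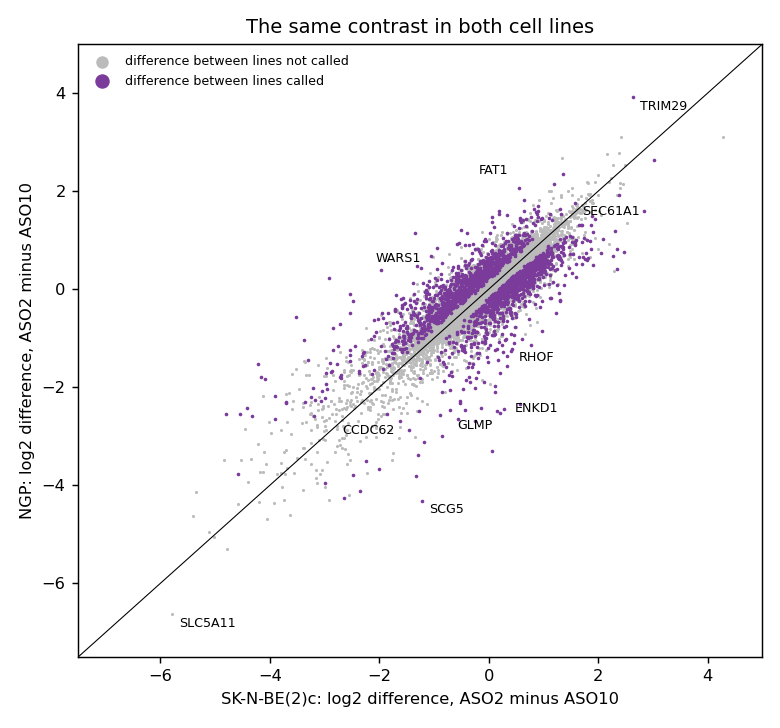
Each point is 1 of 12677 genes, with the log2 difference, ASO2 minus ASO10, in SK-N-BE(2)c on the x axis and in NGP on the y axis, and a line where both are equal. The 2398 genes whose difference between the lines was called are purple; SLC5A11 and CCDC62 lie near the line, while GLMP, ENKD1 and RHOF lie below it at positive x and SCG5 below it at negative x.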

How the data were processed

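RNA sequencing libraries of NGP and SK-N-BE(2)c cells were grouped by their titles. Per the submitters' processing notes, reads were handled with FastQC 0.11.8, cutadapt 1.18, STAR 2.6.0, HTSeq 0.6.1 and DESeq2 1.42.0 on hg19 (GRCh37). The values the authors deposited are a normalized signal per gene, counts divided by 1 factor per library. All NGP values (100%) were whole multiples of what 1 read is worth (tolerance 0.01 reads), so read counts were recovered, and a count test served as an alternative. Of 57905 gene IDs, 51996 (89.8%) matched a symbol, and 0 per-sample columns were left unused in the tables analysed.

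Log2(value + 1) was fitted with limma 3.58.1 (R 4.3.3) with a mean-variance trend over the 6 ASO2 and ASO10 libraries, for genes with a mean of at least 10, with Benjamini-Hochberg adjustment over 14524 genes and a threshold of 0.05. Sides came from a fit with NCA on the same genes, and the line difference from an interaction over 12 libraries. The fit was tested on simulated data. Alternatives were pseudocounts, filters, rescaling to equal totals, edgeR 4.0.16, DESeq2, a replicate block and leaving out libraries. Gene lengths and neighbours came from GENCODE 29, another build than that of the files, so no coordinates from it are given. Python, pandas and matplotlib made the summaries and figures.

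Genes named were, with a symbol and ASO groups that do not overlap, the 8 called genes per direction with the largest difference (mean of at least 100 in the higher group), the 4 with the smallest adjusted p, up to 2 members per direction of each list, the 3 per direction with the strongest interaction, and 3 of an earlier analysis. Others are marked where they appear, and a few genes are not reported here. The members, lists and tests were chosen with earlier results of these data known. Lists were counted, with no set test, and some genes belong to several. Means are given ± SD (n = 3).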

Additional observations from a re-analysis of the deposited data

Results flagged for a closer look

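The difference between ASO2 and ASO10 was itself not the same in both lines, NGP and SK-N-BE(2)c, for 41 of the named genes, by limma's interaction test over 12 libraries (adjusted p under 0.05, which 18.9% of all genes tested in both lines met). WARS1, ARHGEF2, CACNA2D2, GLMP, ENKD1 and RHOF were named for their strong interaction, so their calls were fixed by that choice. Not all of the 137 named genes were tested in both lines. The 41 are therefore no share to set against 18.9%. Each value is the NGP difference minus the SK-N-BE(2)c difference in log2 units, with the difference in each line, NGP then SK-N-BE(2)c, in brackets.

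The sign of the fitted difference turned between the lines in 12 genes. The line difference was 1.07 in LMO1 (0.98 and -0.09), 1.501 in HSD17B7 (0.92 and -0.58), 1.12 in WARS1 (0.18 and -0.94) and 0.81 in ARHGEF2 (0.23 and -0.57). It was 1.04 in CACNA2D2 (0.99 and -0.05), -1.24 in DNAJB4 (-0.77 and 0.48), -0.68 in HSPA4L (-0.58 and 0.09) and -0.38 in NDUFB5 (-0.35 and 0.03). Further genes of this kind had -0.25 in CHGA (-0.24 and 0.01), -2.73 in GLMP (-2.52 and 0.21), -2.71 in ENKD1 (-2.44 and 0.27) and -1.64 in RHOF (-1.22 and 0.42). A turn of the fitted sign does not show that both lines differ, since the smaller value was not always called.

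The difference was larger in NGP, in the same direction, in 13 genes. The value was 1.29 in TRIM29 (3.92 and 2.63), 0.99 in CALHM5 (2.35 and 1.35), 1.52 in FAT1 (2.06 and 0.55) and 0.19 in SEC61A1 (1.76 and 1.57). It came to 0.24 in RRM2 (0.87 and 0.63), 0.52 in KLF7 (0.69 and 0.17), -3.10 in SCG5 (-4.32 and -1.22) and -1.62 in ODAD3 (-4.27 and -2.65). Next were -0.97 in ARHGAP27 (-3.96 and -2.99), -0.38 in BCL2L13 (-1.10 and -0.72), -0.34 in CDC20 (-0.42 and -0.09) and -0.57 in DUSP4 (-0.97 and -0.40). The others had -0.41 in STMN2 (-0.45 and -0.03).

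It was smaller in NGP, in the same direction, in 16 genes. Here the line difference was -0.38 in MAP1LC3B (2.63 and 3.02), -1.08 in TP53INP1 (0.51 and 1.59), -0.41 in RRM2B (0.46 and 0.87) and -0.26 in EIF3L (0.74 and 0.99). Similar genes had -0.41 in NUF2 (0.96 and 1.37), -0.61 in PCF11 (0.68 and 1.28), -0.87 in IER3 (0.99 and 1.85) and -0.82 in DCX (0.71 and 1.53). Then came -0.39 in NSDHL (0.27 and 0.66), -0.21 in ISL1 (0.54 and 0.75), 0.35 in ALDH1L2 (-1.40 and -1.75) and 0.44 in CDC45 (-0.98 and -1.42). The rest had values of 0.36 in INTS4 (-0.62 and -0.98), 0.48 in STX1A (-0.90 and -1.39), 0.19 in PGD (-0.86 and -1.05) and 0.28 in ABCC1 (-0.65 and -0.93). NSDHL and WARS1 were not called in NGP when 1 ASO2 library was left out. In the other line FAT1 and LMO1 were at 24.5 or less in every SK-N-BE(2)c library. The part of these low levels in the line difference was not tested.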

How the results depend on the processing

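The count of 8962 called genes ranged from 7573 (mean of at least 50) to 9909 (no filter on low values) over pseudocounts, filters, scaling, edgeR (8996), DESeq2 (8215), a fit on 9 libraries (8458) and no trend (8115), and 8747 of the genes were also called by edgeR. A limma test against a fold of 1.5 called 2120. Genes of at least 1 log2 unit, 1979 in all, were 3471 with no filter on low values and 1008 with a mean of at least 50, where fewer genes were tested. Without 1 library, the counts ran from 8284 to 8698 and from 1947 to 2027, and those of the line difference from 1834 to 2295. Rescaling to equal totals moved the median of all genes from 0.02 to -0.04 and the called genes to 4004 higher with ASO2 and 4861 with ASO10; members called became 5 higher with ASO10 for the SAGA and NuA4/TIP60 list, 9 higher with ASO2 for ribosomal proteins and 17 for the respiratory chain. The class in opposite directions against NCA fell to 249 when 0.5 log2 units were required. Without 1 NCA library, it ran from 400 to 455 and the class called with neither ASO from 105 to 131, the last without NCA replicate 1.

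Replicate numbers did not pair the libraries: same-numbered ASO2 and ASO10 libraries had correlations of their deviations of -0.0031, 0.0336 and -0.0651, and a replicate block called 8900 genes (1978 of at least 1 log2 unit) and 2255 for the line difference. Of 2186 alternative values of the 137 named genes, 2164 kept their direction and side of the threshold, 22 missed it and 0 turned sign; the 22 were in RPL7, SIX4, NSDHL, IRF9, STN1, WARS1, HRK and RUVBL1. The cause was not tested. Levels under about 40 counts limit what small differences could be called, and SIX4 and HRK averaged below that under both ASOs. The averages of RPL7, STN1, NSDHL, WARS1 and RUVBL1 were higher, from 88.7 (RPL7, ASO10) to 1395 (RUVBL1, ASO10). Their differences were small, from -0.14 in RUVBL1 to 0.46 in STN1.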
